A study of Homo sapiens with 4 samples.

Results

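The genes described here are 33 genes of cholesterol synthesis, uptake and efflux, taken by name from the 58233 genes of a count table, with earlier results of these data known. All 33 were found and all 33 had enough counts to be tested. RNA was sequenced from MCF10AT cells, human breast epithelial cells of the MCF10A lineage that carry HRasG12V in all samples and were maintained in medium with hydrocortisone, cholera toxin, insulin, epidermal growth factor and horse serum. Of the 4 libraries, 2 have the genotype label Bromo+/- and 2 the label Non-target control. The labels do not say what Bromo+/- stands for; the series text speaks of EP300 knockdown by lentiviral shRNA with puromycin selection, without saying which samples received it. Separate cultures are not stated, so a p-value here reflects spread among these libraries only, possibly technical. Whether a group is 1 clone or a pool of cells is not stated either.

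Cells make cholesterol from acetyl-CoA, first by the mevalonate steps to farnesyl diphosphate and then by the sterol steps from squalene onward. The sterol-sensing protein SCAP carries the transcription factors SREBP-1 and SREBP-2 (genes SREBF1 and SREBF2) out of the endoplasmic reticulum when sterols are low, and INSIG proteins hold SCAP back when sterols are high. Nuclear SREBP raises transcription of the synthesis genes, while the oxysterol receptors LXR-alpha and LXR-beta (NR1H3 and NR1H2) raise transcription of exporters such as ABCA1 and ABCG1.

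The libraries held 10835237 to 11975396 counts. Mitochondrially encoded genes took 5.05% and 5.18% of counts in Bromo+/- and 4.32% and 4.21% in control. EP300, the acetyltransferase gene in the series title, stood at 121 and 126 CPM (counts corrected for library size and composition) in Bromo+/- and 106 and 111 CPM in control, and was higher, not lower, in Bromo+/- (log2 fold change 0.19, SE 0.06, edgeR adjusted p = 0.00701). That call was lost under the Wald test of DESeq2 (0.0639), without control replicate 1 (0.162) and without control replicate 2 (0.0521). Of 11 epithelial markers, all 11 were lower in Bromo+/-, against 27.1% of all tested genes at the threshold given below. The smallest of these falls was that of ITGB4 (log2 fold change -0.24), and KRT14 had no count in Bromo+/-. The summed level of the list was 1884 and 1796 CPM in Bromo+/- against 10662 and 10361 CPM in control. Of 8 mesenchymal markers 7 were higher, against 26.4% of all tested genes, and FAP was lower (-1.19). The mesenchymal list summed to 5937 and 6112 CPM in Bromo+/- against 1917 and 1805 CPM in control. Leukocyte markers summed to 6.45 to 7.57 CPM in Bromo+/- and 25.3 to 25.5 CPM in control, with CD3E at 0 in all libraries and PTPRC at 0 or 1 count, and endothelial markers to 7.96 to 8.87 CPM in Bromo+/- and 16.6 to 19.8 CPM in control, with CDH5 at 0 or 1 count. The part of these marker differences in the results below was not tested, and in bulk RNA fewer cells of a type and less RNA per cell cannot be told apart.

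Most synthesis genes and 4 of 5 SREBP control genes were lower in Bromo+/-. In the LXR and efflux group none of 5 genes passed as lower, too few genes to tell from the 27.1% of all tested genes. Of the 33 genes 21 fell, 7 rose and 5 missed the threshold, an adjusted p of 0.05 by the quasi-likelihood test of edgeR with Benjamini-Hochberg adjustment over all 13179 genes tested. Over all those genes 53.5% passed, 27.1% lower and 26.4% higher, so the 63.6% of members that fell stands against a background of 27.1%. A fall of 2-fold or more was reached by 10 members (ACAT2, HMGCS1, MVK, MVD, FDFT1, SQLE, MSMO1, SC5D, INSIG1 and INSIG2) and by 7.53% of all tested genes. A rise of that size was reached by ABCA1 alone and by 7.44% of all tested genes. Both Bromo+/- libraries lay below both control libraries for 22 members and above them for 7, against 37.5% and 37.8% of all tested genes, and the groups overlapped for CYP51A1, LBR, MYLIP and ABCG1. The median log2 fold change of the members was -0.72, against 0.01 over all tested genes.

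By role, 6 of 7 mevalonate genes fell (median log2 fold change -1.02) and 9 of 12 sterol-step genes fell (-0.91). In the SREBP control group 4 of 5 genes fell (-0.46), and in the uptake and transport group 2 of 4 fell (-0.26). None of the 5 genes of LXR, efflux and esterification passed as lower and 3 rose (0.47), with the background again at 27.1% for falls and 26.4% for rises. Medians of the last 2 groups rest on few genes: without control replicate 2 the uptake median was -0.15, and the LXR median ran between 0.22 without Bromo+/- replicate 1 and 0.59 without control replicate 1. A filter of 1 CPM in all libraries, which leaves ABCA1 untested, gave an LXR median of 0.19. Scaling by library size alone called 4430 genes higher and 2800 lower over the whole table, against 3485 and 3570 with the scaling used here, and left the member counts at 7 higher and 21 lower.

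**Figure D1:**
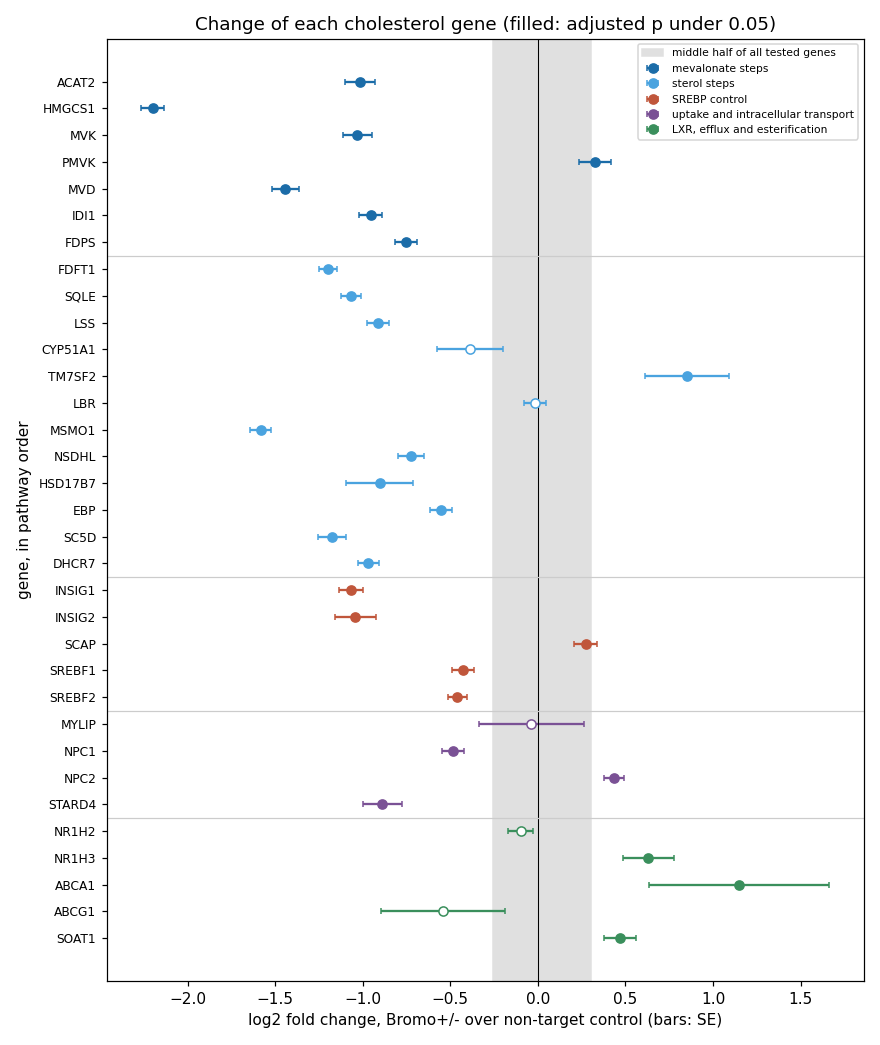
Log2 fold change of each gene in Bromo+/- over control (x axis, bars are SE), with genes in pathway order down the page and colours by role. Filled points passed an adjusted p of 0.05, open points did not, and the grey band holds the middle of all tested genes from percentile 25 to percentile 75. Synthesis genes other than PMVK, TM7SF2 and LBR lie left of the band, with HMGCS1 farthest at -2.20.

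The DNA around the transcription starts of the 33 genes was searched for 4 short motifs. RefSeq promoters (GRCh38.p14, 250 bases before to 50 after each start) were found for 29 of the 33 genes. ACAT2, FDFT1, SQLE and ABCG1 had no entry. The motifs, each read on both strands, were TCACNCCAC for the sterol regulatory element bound by SREBP, CACGTG for the E-box, CCAAT for the box bound by NF-Y, a partner of SREBP at sterol genes, and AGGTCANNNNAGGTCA for the direct repeat bound by LXR with its partner RXR. The next lines show the 200 bases before the most upstream start of the 3 members with the largest falls that had an entry (HMGCS1, MSMO1 and MVD), of INSIG1 and SREBF2 from the SREBP control group, and of TM7SF2, the synthesis gene with the largest rise. Capitals mark CCAAT (or ATTGG, its other strand), the E-box and the sterol regulatory element. INSIG1 and SREBF2 are examples only. Every sequence shown holds CCAAT, while INSIG2, SREBF1 and NPC1, which also fell, have no CCAAT match in their promoters.
HMGCS1 (chr5:43313413-43313612, minus strand): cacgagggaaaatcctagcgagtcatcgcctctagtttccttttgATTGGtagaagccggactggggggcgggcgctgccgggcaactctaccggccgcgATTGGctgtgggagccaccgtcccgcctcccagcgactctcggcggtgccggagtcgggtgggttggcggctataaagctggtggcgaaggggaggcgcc
MSMO1 (chr4:165327469-165327668, plus strand): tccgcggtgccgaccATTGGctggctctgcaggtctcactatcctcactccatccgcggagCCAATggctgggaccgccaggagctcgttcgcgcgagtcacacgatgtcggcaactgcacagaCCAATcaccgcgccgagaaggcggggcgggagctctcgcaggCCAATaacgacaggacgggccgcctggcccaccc
MVD (chr16:88663092-88663291, minus strand): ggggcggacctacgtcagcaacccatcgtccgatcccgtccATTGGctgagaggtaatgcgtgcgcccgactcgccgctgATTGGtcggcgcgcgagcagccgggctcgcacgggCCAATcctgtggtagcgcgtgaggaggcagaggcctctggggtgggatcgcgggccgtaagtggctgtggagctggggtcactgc
INSIG1 (chr7:155297678-155297877, plus strand): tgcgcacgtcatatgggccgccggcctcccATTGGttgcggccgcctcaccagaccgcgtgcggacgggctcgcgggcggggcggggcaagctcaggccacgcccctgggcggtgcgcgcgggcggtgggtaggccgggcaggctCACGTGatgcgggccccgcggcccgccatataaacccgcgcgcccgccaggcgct
SREBF2 (chr22:41832905-41833104, plus strand): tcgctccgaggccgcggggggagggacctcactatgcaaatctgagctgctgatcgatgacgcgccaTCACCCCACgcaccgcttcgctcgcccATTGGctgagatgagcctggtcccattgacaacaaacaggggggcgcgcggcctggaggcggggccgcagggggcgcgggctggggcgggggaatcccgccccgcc
TM7SF2 (chr11:65111672-65111871, plus strand): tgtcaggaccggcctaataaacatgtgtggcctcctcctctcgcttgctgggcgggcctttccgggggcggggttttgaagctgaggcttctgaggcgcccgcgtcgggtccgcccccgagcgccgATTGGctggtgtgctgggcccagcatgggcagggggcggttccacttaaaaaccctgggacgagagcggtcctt
HMGCS1 has a pair of CCAAT boxes in these bases, MSMO1 has 4 and MVD has 3. The SREBF2 promoter holds TCACCCCAC, the sterol regulatory element, from 133 to 125 bases before the start and a CCAAT box from 106 to 102 bases before it, and INSIG1 holds the E-box from 55 to 50 bases before the start and a CCAAT box from 170 to 166 bases before it. TM7SF2, which was higher, holds 1 CCAAT box.

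CCAAT was found in the promoters of 20 of the 29 members with an entry (69.0%). By call these were 15 of 18 members that fell (83.3%), 4 of 7 that rose (57.1%) and 1 of 4 that did not pass. The last 2 sets are small, and a link of CCAAT to the direction of change was not tested. Over all 10107 tested genes matched to a promoter by symbol the share was 43.5%, and it was 44.2% of those that fell, 43.6% of those that rose and 43.1% of those that did not pass. It was in 34.6% of all 35116 RefSeq windows. In IDI1 and NSDHL, CCAAT matches on opposite strands overlap. The sterol regulatory element as spelled was in 1 of 29 member promoters, SREBF2, against 1.13% of all windows and 1.39% of tested genes. The E-box was in 5 of 29 (ABCA1, INSIG1, LSS, SC5D and SCAP), against 7.26% of all windows and 12.6% of tested genes. The LXR repeat was in none of the 29 and in 7 of all windows. No match says only that these letters are not in the window, and a match is not a bound site.

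**Figure D2:**
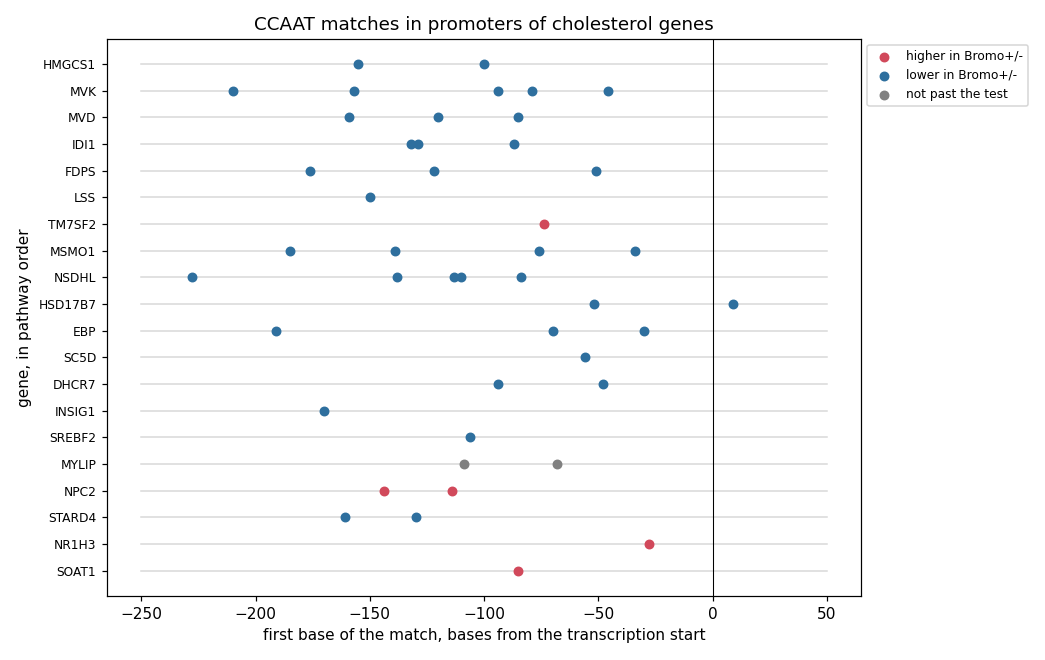
Position of each CCAAT match relative to the transcription start (x axis, bases) in the 20 members with a match, in pathway order, with the first window that holds a match where a gene has several. Blue points are genes lower in Bromo+/-, red higher and grey not past the test, and the matches shown lie before the start except 1 in HSD17B7, with MVK and NSDHL holding 5 each.

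The mevalonate genes come first in the pathway, and 6 of 7 were lower in both Bromo+/- libraries than in both controls. Over all tested genes that share was 37.5%. ACAT2, the cytosolic thiolase that joins acetyl-CoA units, stood at 26.8 and 29.6 CPM in Bromo+/- and at 57.4 and 56.7 CPM in control, 2.02-fold lower. Its exons overlap those of 1 gene on the opposite strand over 43.0% of their length. They overlap those of TCP1, also on the opposite strand and with 5821 to 6484 counts per library, over 9.23%. The counting's strand setting is not given, so the ACAT2 level is uncertain. Smaller opposite-strand overlaps are present for other members, such as SREBF1 with RAI1 (6.92%) and NR1H3 with ACP2 (4.17%). HMGCS1, which makes HMG-CoA, had the largest change of any member, with 52.6 and 60.1 CPM in Bromo+/- and 247 and 271 CPM in control (chromosome 5, 43289395 to 43313512, GRCh38). That is a 4.59-fold fall (log2 fold change -2.20, SE 0.06, adjusted p = 3.47e-91), and 3.45% of tested genes had a lower log2 fold change. MVK, mevalonate kinase, stood at 28.2 and 27.7 CPM in Bromo+/- and at 58.6 and 55.5 CPM in control (log2 fold change -1.03, SE 0.08).

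PMVK, the kinase of the next step, went the other way, with 39.1 and 32.8 CPM in Bromo+/- and 29.3 and 28.2 CPM in control (log2 fold change 0.33, SE 0.09, edgeR adjusted p = 0.00118). The PMVK call was lost without Bromo+/- replicate 1 (log2 fold change 0.19, adjusted p = 0.135) and under DESeq2 (0.0628). MVD, the decarboxylase that makes isopentenyl diphosphate, had 35.9 and 32.2 CPM in Bromo+/- and 90.3 and 94.8 CPM in control, a 2.72-fold fall. These consecutive steps thus differed in direction, PMVK with a small rise and MVD with the third-largest fall of the members. IDI1, the isomerase of isopentenyl diphosphate, had 71.8 and 71.4 CPM in Bromo+/- and 133 and 145 CPM in control. FDPS, which makes farnesyl diphosphate, the branch point to sterols and to isoprenoids, had 105 and 93.4 CPM in Bromo+/- and 166 and 169 CPM in control. Both Bromo+/- libraries lay below both controls for IDI1 and FDPS, as for 37.5% of all tested genes. Their log2 fold changes were -0.95 (SE 0.07) and -0.75 (SE 0.06).

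The 3 genes from squalene to lanosterol all fell. FDFT1, squalene synthase, had 301 and 288 CPM in Bromo+/- and 681 and 671 CPM in control (log2 fold change -1.20, SE 0.05, adjusted p = 5.32e-63). SQLE, the squalene epoxidase, had 122 and 128 CPM in Bromo+/- and 254 and 271 CPM in control (-1.07, SE 0.06). LSS, which closes the rings to lanosterol, had 88.5 and 80.0 CPM in Bromo+/- and 154 and 163 CPM in control (-0.91, SE 0.06). In all 3 genes both Bromo+/- libraries lay below both controls, as in 37.5% of all tested genes.

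The genes of the next steps, removal of a methyl group from lanosterol and reduction of the double bond that it leaves, did not pass as lower. CYP51A1, the demethylase, had 84 and 42 counts in Bromo+/- and 79 and 75 in control and did not pass (log2 fold change -0.39, SE 0.19, adjusted p = 0.0750). Its call depended on 1 library: without Bromo+/- replicate 1 it stood at -0.91 with an adjusted p of 0.00113, and without Bromo+/- replicate 2 at -0.03 with 0.913. Exons of LRRD1 on the same strand cover 78.8% of the CYP51A1 exons, and LRRD1 held 0 to 2 counts per library, so the CYP51A1 level is uncertain, since how reads in shared exons were counted is not given. LBR and TM7SF2 both encode enzymes of the reduction. LBR, also a receptor of the nuclear lamina, had 116 and 119 CPM in Bromo+/- and 115 and 123 CPM in control and did not pass (-0.02, SE 0.06, adjusted p = 0.832). TM7SF2 had 4.96 and 4.69 CPM in Bromo+/- and 2.96 and 2.42 CPM in control, on 28 to 61 counts per library, and was 1.80-fold higher (log2 fold change 0.85, SE 0.24, adjusted p = 0.00118). DESeq2 did not call it (adjusted p = 0.0724). Per kb of exon, LBR was 15.2 and 16.4 times as high as TM7SF2 in Bromo+/- and 25.2 and 32.9 times in control, so LBR remained the more abundant of the pair in every library.

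The 6 genes of the later sterol steps all fell. MSMO1, the C4 methyl oxidase, had 80.5 and 81.1 CPM in Bromo+/- and 233 and 251 CPM in control, the second-largest fall of the members (log2 fold change -1.58, SE 0.06, adjusted p = 1.16e-72). NSDHL and HSD17B7 complete the removal of the C4 methyl groups. NSDHL had 50.9 and 46.7 CPM in Bromo+/- and 84.8 and 76.7 CPM in control (-0.72, SE 0.07), and HSD17B7 had 60 and 40 counts in Bromo+/- and 93 and 82 in control (-0.90, SE 0.19). EBP, the isomerase of the second ring, had the smallest fall that passed among the synthesis genes, with 105 and 98.8 CPM in Bromo+/- and 154 and 146 CPM in control (-0.55, SE 0.06). SC5D, the lathosterol desaturase, had 29.4 and 29.6 CPM in Bromo+/- and 65.0 and 68.0 CPM in control (-1.17, SE 0.08). DHCR7, which reduces 7-dehydrocholesterol in a last step of the pathway, had 118 and 107 CPM in Bromo+/- and 217 and 224 CPM in control (-0.97, SE 0.06). Both Bromo+/- libraries lay below both controls for all of these 6 genes, as for 37.5% of all tested genes.

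Summed over the 19 synthesis genes, the level was 1387 and 1338 CPM in Bromo+/- and 2757 and 2828 CPM in control, so Bromo+/- stood at 48.8% of control. At the ends of the order per kb of exon the same genes stood in every library, with CYP51A1, TM7SF2 and HSD17B7 in the lowest 3 places. The place of CYP51A1 is uncertain, since LRRD1 exons on the same strand cover 78.8% of its exons. FDFT1 had the highest level of the 19 in all 4 libraries, at 56.6 ± 1.67 CPM per kb in Bromo+/- and 130 ± 1.30 in control (SD, n = 2 each). HMGCS1 ranked 12 and 11 of 19 in Bromo+/- and 5 in both control libraries, while PMVK ranked 3 and 6 in Bromo+/- and 10 and 12 in control. The ratio of HMGCS1 to PMVK per kb was 0.366 and 0.499 in Bromo+/- and 2.29 and 2.61 in control, which puts PMVK above HMGCS1 in Bromo+/- and below it in control. Across the 19 genes, which share the same libraries, Spearman's rho between the control level per kb and the log2 fold change was -0.39. This is a description over genes that are not independent, and the control libraries enter both values.

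**Figure D3:**
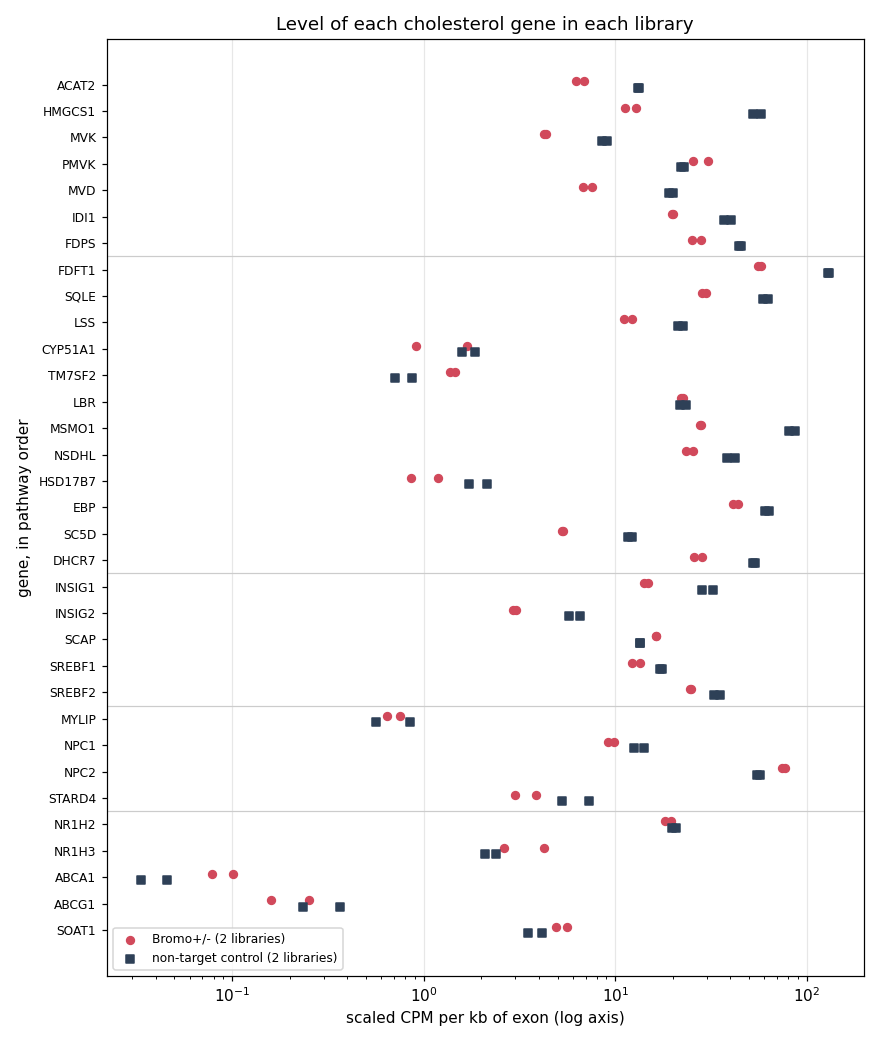
Level of each of the 33 genes in each library, in scaled CPM per kb of exon on a log axis, genes in pathway order down the page. Red circles are the Bromo+/- libraries and dark squares the control libraries. Circles lie left of squares for most synthesis and SREBP control genes, and right of them for PMVK, TM7SF2, SCAP, NPC2, NR1H3, ABCA1 and SOAT1.

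The SREBP control genes include the factors, their escort and its retention proteins. SREBF2, whose product acts mainly on cholesterol genes, had 188 and 185 CPM in Bromo+/- and 248 and 266 CPM in control (chromosome 22, 41833079 to 41907308, log2 fold change -0.46, SE 0.05, adjusted p = 2.02e-14). SREBF1, whose product acts mainly on fatty acid genes, had 109 and 98.1 CPM in Bromo+/- and 137 and 142 CPM in control (-0.43, SE 0.06, adjusted p = 2.58e-10). Both fell, with log2 fold changes nearer 0 than those of HMGCS1 or FDFT1, a difference that was not tested. Their ratio per kb (SREBF2 to SREBF1) was 1.84 and 2.01 in Bromo+/- and 1.92 and 1.99 in control, with the groups overlapping. INSIG1, itself a target of SREBP, had 51.4 and 54.4 CPM in Bromo+/- and 103 and 118 CPM in control (-1.07, SE 0.07). INSIG2, the other retention protein, had 142 and 136 counts in Bromo+/- and 238 and 298 in control (-1.04, SE 0.12). The pair kept nearly the same proportion, with INSIG1 at 4.82 and 4.89 times INSIG2 per kb in Bromo+/- and at 4.93 and 4.96 times in control. SCAP, the escort, was higher, with 103 and 102 CPM in Bromo+/- against 84.9 CPM in both controls (0.27, SE 0.07, adjusted p = 0.000146). These 5 calls held under all 11 alternatives.

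Genes of uptake and intracellular transport went in both directions, and their summed level was 332 and 321 CPM in Bromo+/- and 332 and 322 CPM in control. NPC1 and NPC2 make up most of this sum and no lipoprotein receptor is in the group, so the sum does not measure uptake. MYLIP, a ubiquitin ligase that sends lipoprotein receptors to degradation and a target of LXR, had 28 and 22 counts in Bromo+/- and 18 and 30 in control, and a difference was not detectable at this depth (log2 fold change -0.04, SE 0.30, adjusted p = 0.930). NPC1 and NPC2 together move cholesterol out of lysosomes, and they went opposite ways. NPC1, the membrane protein, had 99.2 and 92.9 CPM in Bromo+/- and 144 and 126 CPM in control (-0.49, SE 0.06, adjusted p = 3.03e-12). NPC2, the soluble carrier, had 213 and 204 CPM in Bromo+/- and 157 and 152 CPM in control (0.44, SE 0.06, adjusted p = 1.73e-12). NPC1 stood at 0.127 and 0.124 of NPC2 per kb in Bromo+/- and at 0.250 and 0.226 of it in control. STARD4, a sterol carrier between membranes and an SREBP target, had 17.1 and 21.9 CPM in Bromo+/- and 30.1 and 41.4 CPM in control (-0.89, SE 0.11), with a wide spread in both groups and no overlap.

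The LXR, efflux and esterification genes were the only role group in which no gene passed as lower. It holds only 5 genes, and 27.1% of all tested genes passed as lower. NR1H2, which encodes LXR-beta, had 73.5 and 68.6 CPM in Bromo+/- and 78.0 and 74.2 CPM in control, and although the groups did not overlap it missed the threshold (log2 fold change -0.10, SE 0.07, adjusted p = 0.243). NR1H3, which encodes LXR-alpha, had 19.4 and 11.8 CPM in Bromo+/- and 10.9 and 9.49 CPM in control (0.63, SE 0.15, adjusted p = 0.000116). The rise of NR1H3 rests on Bromo+/- replicate 1, since without it the value was 0.22 with an adjusted p of 0.295, and without Bromo+/- replicate 2 it was 0.93 with 3.37e-09. ABCA1, the exporter that loads cholesterol onto lipid-poor apolipoprotein, had 11 and 13 counts in Bromo+/- and 4 and 6 in control. It passed narrowly (1.15, SE 0.51, adjusted p = 0.0497), and the call ended in 7 of the 10 alternatives that tested it, with adjusted p between 0.0340 and 0.315 over them. ABCG1, the exporter to mature lipoprotein, had 19 and 11 counts in Bromo+/- and 15 and 26 in control and did not pass (-0.54, SE 0.35, adjusted p = 0.189). SOAT1, which esterifies cholesterol for storage in droplets, had 39.4 and 34.4 CPM in Bromo+/- and 29.2 and 24.4 CPM in control (0.47, SE 0.09, adjusted p = 3.85e-06) and was the only rise of this group whose call held under all 11 alternatives.

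Related genes outside the 33 were read from 5 lists. Branches that draw on the same isoprenoid precursors had 3 of 16 genes higher and 5 lower (median log2 fold change -0.11), or 18.8% and 31.2% against 26.4% and 27.1% of all tested genes. Among them the Rab prenyltransferase subunit RABGGTA fell (-0.55), and SRD5A3 (0.88) and DOLK (0.47), both of dolichol synthesis, rose. Proteins of SREBP cleavage and sterol-regulated degradation had 5 of 13 higher and 3 lower (median 0.12), or 38.5% and 23.1%. MBTPS1, the site-1 protease that first cuts SREBP, had 183 and 184 CPM in Bromo+/- and 124 and 125 CPM in control (0.56, SE 0.06, adjusted p = 1.23e-17), and AUP1 (-0.37) and RNF145 (-0.41), both of sterol-regulated degradation, fell.

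Lipoprotein receptors and sterol transporters had 4 of 13 higher and 2 lower (median 0.14), or 30.8% and 15.4% against 26.4% and 27.1% of all tested genes. LRP1, a large endocytic receptor, had 60.9 and 65.0 CPM in Bromo+/- and 6.48 and 6.65 CPM in control, 9.57-fold higher (3.26, SE 0.11). SCARB1, the receptor for high-density lipoprotein, rose as well (0.44). Among LXR partners, targets and oxysterol enzymes 8 of 12 were tested, 2 rose and 2 fell. SULT2B1, which sulfates cholesterol and is a gene of stratified epithelia, had no count in Bromo+/- and 63 in each control library, at least 44.9-fold lower with 3 counts over the group as the floor. The 4 genes not tested were CH25H, CYP27A1, CYP7B1 and SOAT2, at 0 to 4 counts per library.

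Lipogenic targets of SREBP-1 had 7 of 11 lower and 1 higher (median -0.39), a share of 63.6% against 27.1% of all tested genes. SCD, the stearoyl-CoA desaturase, had 413 CPM in both Bromo+/- libraries and 935 and 944 CPM in control (-1.19, SE 0.05). FASN, fatty acid synthase, had 534 and 488 CPM in Bromo+/- and 758 and 836 CPM in control (-0.64, SE 0.05), and ACSS2, which makes acetyl-CoA from acetate, fell by 0.91. The single rise, named after its value was seen, was FADS1 (0.53), a fatty acid desaturase gene whose interval lies within that of FADS2.

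**Figure D4:**
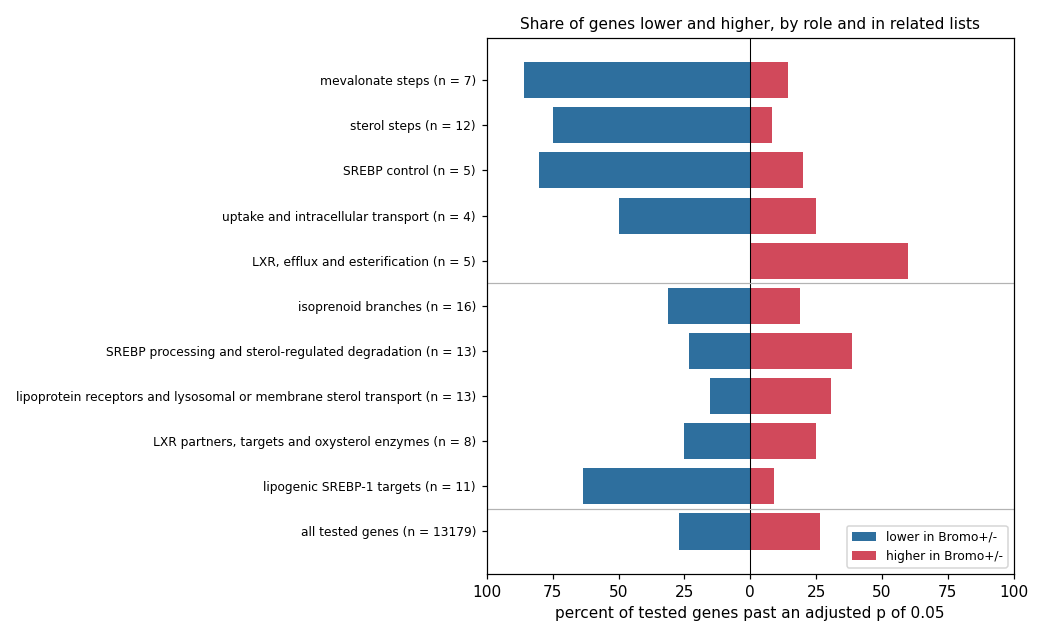
Percent of tested genes lower (blue, left) and higher (red, right) in Bromo+/- at an adjusted p of 0.05, for the 5 role groups, the 5 related lists and all tested genes, with the number tested beside each name. The mevalonate, sterol, SREBP control and SREBP-1 target rows reach 63.6% to 85.7% lower against 27.1% of all tested genes. The LXR, efflux and esterification row has 0% lower, on only 5 genes.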

How the data were processed

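Per-gene raw counts by Ensembl ID, with exon lengths, were deposited by the authors in 1 table. Reads were aligned with STAR to GRCh38 and counted with featureCounts 1.5.2, per the submitters' processing notes. For the annotation release, strand setting and shared reads, the sources used here give nothing. Columns were matched to samples by name, those with WT to the Non-target control. A table of current symbols named 57392 of the 58233 gene IDs.

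The test was edgeR 4.0.16 under R 4.3.3: filterByExpr, scaling by the trimmed mean of M values (TMM), robust quasi-likelihood test on group (2 residual degrees of freedom), Benjamini-Hochberg adjustment over 13179 genes. SE is the log2 fold change over the root of the F statistic. Levels are scaled CPM, or CPM per kb of exon. By library size alone, without the TMM scaling, 3 counts equal 0.251 to 0.277 CPM, and floors cover counting error only. Replicates had r of 0.995 within each group across genes, and chi-square per degree of freedom was 2.44 in Bromo+/- and 1.56 in control, so none was a copy. Members, lists and the rule for named genes (every member, EP300, and the 3 genes with the smallest adjusted p among those past the threshold in each related list) were chosen with earlier results of these data known. Some genes that this rule names are not reported here. The procedure was tested on simulated counts before use. Alternatives were other scalings, filters, DESeq2 1.42.0, a replicate block and leaving out each library. Promoters were searched in Python 3.11.15.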

Additional observations from a re-analysis of the deposited data

How the results depend on the processing

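All 21 falls passed under all 11 alternatives, which were other scaling, filters, the DESeq2 Wald test, the replicate block and leaving out each library, as did the rises of SCAP, NPC2 and SOAT1. Of 362 values of single genes under an alternative, 343 had the same direction and side of the threshold, 11 lost the call (ABCA1 7 times, PMVK, TM7SF2 and NR1H3), and CYP51A1 gained it. The DESeq2 Wald test gave 4 rises among the members and 2292 over all genes. Leaving out 1 library gave 26 to 27 member calls, 4 to 6 of them rises, and 5568 to 6641 calls over all genes. The cause was not tested in either case.

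The median of all members was -0.66 with upper quartile scaling, -0.64 with library size alone and -0.84 to -0.64 without 1 library. The median of the sterol steps was -0.85, -0.82 and -1.01 to -0.77 in the same order. Library size alone shifts the median of all tested genes by 0.08. The uptake median was -0.35 to -0.15 without 1 library. The small value of LBR turned positive with upper quartile scaling (0.042) and library size alone (0.066) and lay between -0.069 and 0.025 without 1 library. That of MYLIP turned positive with the same scalings (0.022 and 0.046) and lay between -0.29 and 0.29 without 1 library, and neither gene passed in any of these. EP300 was at 0.18 with the DESeq2 Wald test and at 0.15 to 0.22 without 1 library.

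The labels do not say whether same-numbered replicates share anything beyond the number. Replicate differences in the groups correlated at 0.05 across genes, which cannot settle it. With the replicate block 27 members and 7271 genes over the table passed, against 28 and 7055 without it, and ABCA1 was the call that ended (adjusted p = 0.0553). ABCA1, ABCG1, MYLIP, TM7SF2, HSD17B7 and CYP51A1 had low counts, at 4 to 93 per library. For CYP51A1 the counting of shared exons is uncertain as well, and its 2 Bromo+/- libraries differed.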
